A study of Mus musculus with 8 samples.

Results

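The transcripts described here encode 56 mucin-type glycosyltransferases, measured in the epithelium of the colon, the proximal small intestine (written as intestine), the hindstomach and the forestomach of mouse embryos at E16.5. They were chosen by symbol: the numbered members of the Galnt, Galntl, Gcnt, B3gnt, Fut, St3gal, St6gal and St6galnac families, with C1galt1, C1galt1c1 and A4gnt, which gave 56 of the 23393 gene symbols in the table. A level of at least 1 FPKM (a read level scaled to the length of the transcript and to sequencing depth) in at least 2 of the 8 libraries was reached by 39 of them, among 12894 genes that were tested. The colon had the highest mean level for 21 of these 39 genes, or 53.8%, against 26.3% of all genes tested (23 of 39, or 59.0%, against 24.8%, without the library labelled forestomach replicate 1, which goes against its label in part, as described below). Fut2, Fut8, B3gnt5, B3gnt7, St6gal1 and St6galnac6 were all higher in both colon libraries than in both intestine libraries, and the intestine held the highest levels of St3gal1, St3gal3 and St3gal4.

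Each tissue had 2 libraries of polyadenylated RNA. Per the labels' protocols the embryos carried ShhCre and one R26YFP allele, in which a Cre driven from the Shh locus switches on a yellow fluorescent reporter, in all 4 tissues alike and with no treatment. Colon and intestine epithelium was shaken loose in EDTA, hindstomach epithelium in EDTA of a higher concentration, and the forestomach, cut away where squamous meets glandular epithelium, was incubated in Dispase and its epithelium lifted off by hand. Tissue and isolation method therefore cannot be told apart for the forestomach and, for EDTA concentration, for the hindstomach. Replicate numbers are given with no word on whether both libraries of a tissue came from separate embryos, and p-values therefore cover only the spread between libraries, which may be technical. Levels come from whole epithelium, in which fewer cells of a type and less RNA per cell cannot be told apart.

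Mucin-type O-glycans are built one sugar at a time in the Golgi on serines and threonines. Polypeptide GalNAc-transferases (Galnt) start the chain, C1galt1 with its chaperone C1galt1c1 adds galactose to make core 1, and Gcnt and B3gnt enzymes add the GlcNAc that branches or lengthens it. Fucosyltransferases (Fut), sialyltransferases (St3gal, St6gal, St6galnac) and A4gnt then cap the ends. These glycans coat the secreted and cell-surface mucins that lubricate and shield the gut. Several families reach beyond mucins: Fut8 puts the core fucose on N-glycans, St6gal1 caps N-glycans, and B3gnt5, St3gal5 and St6galnac6 are best known for glycolipids.

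A few members stand for the regional patterns described below, and the stretch upstream of their transcript starts, from RefSeq on GRCm38.p6, is shown because these genes were high in different tissues: B3gnt5, B3gnt3, St6galnac4 and St6gal1 were higher in colon than in intestine, Gcnt4 was highest in intestine and A4gnt was higher in hindstomach than in intestine. B3gnt5 lies at chr16:19759984-19760207, plus strand, B3gnt3 at chr8:71701801-71702050, minus strand, St6galnac4 at chr2:32586828-32587077, plus strand, St6gal1 at chr16:23224490-23224739, plus strand, Gcnt4 at chr13:96924463-96924688, plus strand and A4gnt at chr9:99612252-99612501, plus strand. Each stretch ends at or just before the start and is written 5′ to 3′ on the gene's own strand. Capitals mark matches, on either strand, to short motif forms of 3 gut transcription factors: TTTATG for Cdx, AGATAA for Gata and CAAAGTNCA for Hnf4.
B3gnt5: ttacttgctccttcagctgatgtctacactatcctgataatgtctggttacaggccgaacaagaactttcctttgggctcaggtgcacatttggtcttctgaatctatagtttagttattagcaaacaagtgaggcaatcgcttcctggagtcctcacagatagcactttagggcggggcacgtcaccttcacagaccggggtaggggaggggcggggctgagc
B3gnt3: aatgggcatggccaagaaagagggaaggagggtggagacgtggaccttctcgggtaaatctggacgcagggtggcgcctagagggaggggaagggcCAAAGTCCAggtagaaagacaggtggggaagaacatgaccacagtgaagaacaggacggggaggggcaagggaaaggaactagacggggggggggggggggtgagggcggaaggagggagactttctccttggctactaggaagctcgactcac
St6galnac4: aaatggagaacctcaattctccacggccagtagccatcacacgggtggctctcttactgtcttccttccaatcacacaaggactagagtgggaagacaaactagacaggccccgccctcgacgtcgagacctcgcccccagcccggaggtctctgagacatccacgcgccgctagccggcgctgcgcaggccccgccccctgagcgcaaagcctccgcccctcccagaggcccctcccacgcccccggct
St6gal1: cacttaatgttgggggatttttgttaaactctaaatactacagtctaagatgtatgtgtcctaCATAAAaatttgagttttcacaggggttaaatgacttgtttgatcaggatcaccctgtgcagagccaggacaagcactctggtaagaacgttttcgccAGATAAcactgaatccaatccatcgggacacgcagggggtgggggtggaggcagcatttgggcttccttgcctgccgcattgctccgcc
Gcnt4: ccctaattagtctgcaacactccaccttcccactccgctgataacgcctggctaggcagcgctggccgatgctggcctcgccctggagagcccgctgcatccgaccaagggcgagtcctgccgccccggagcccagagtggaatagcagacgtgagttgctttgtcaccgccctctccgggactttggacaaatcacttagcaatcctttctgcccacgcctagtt
A4gnt: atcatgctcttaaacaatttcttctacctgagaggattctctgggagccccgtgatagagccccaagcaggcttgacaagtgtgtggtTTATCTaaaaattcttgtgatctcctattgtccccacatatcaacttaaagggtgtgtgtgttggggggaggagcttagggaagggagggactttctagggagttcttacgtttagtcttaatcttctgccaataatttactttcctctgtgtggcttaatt
St6gal1 held a TTTATG match, read on the other strand, and an AGATAA match, A4gnt an AGATAA match read on the other strand and B3gnt3 a CAAAGTNCA match. In the 250 bases upstream of the start, TTTATG occurred at 5 of 56 starts of the 39 members with an entry (8.93%) and at 10.8% of 32851 RefSeq starts. These 39 are not the 39 members tested, as some untested members (Galnt9 for example) had an entry and some tested ones (Fut2 for example) had none. AGATAA occurred at 7 of the 56 (12.5%) and at 9.99% of all starts, and CAAAGTNCA at 1 (1.79%) and at 1.19% of all starts. A match is a description of the letters and says nothing about binding.

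The libraries were first checked against tissue markers. Hoxd13, a gene of the hindmost gut, stood at 9.96 and 14.2 FPKM in colon and at no more than 0.0200 FPKM in the other 6 libraries, and the enterocyte lipid-binding gene Fabp1 reached 6782 and 9222 FPKM in intestine. Cym, the milk-clotting enzyme of the young stomach, stood at 23520 and 29460 FPKM in hindstomach. Forestomach replicate 2 had squamous keratins at 15450 FPKM (Krt13) and 12200 FPKM (Krt4), but the library labelled forestomach replicate 1 had 233 and 126 FPKM, together with 35990 FPKM of the gastric surface mucous gene Gkn2 and 97970 FPKM of pepsinogen C (Pgc). Of 11 pancreatic acinar markers it also held Clps at 71030 FPKM and Try4 at 392 FPKM, with the others at no more than 4.88 FPKM. That library also held squamous transcripts: the 12 squamous markers summed to 1876 FPKM in it, against 48700 FPKM in its partner. The other 6 libraries had 3.77 to 217 FPKM, and Krt14 stood at 193 FPKM beside 212 FPKM in the partner. The library labelled forestomach replicate 1 therefore went against its label in part. Its correlation with its partner was r = 0.713 against 0.959 to 0.984 in the other tissues (Pearson, log2 values over all tested genes, which are not replicates). Counts of members called are given with and without it. Of 41 calls of single members made with all libraries, 40 held without it, with log2 fold changes smaller in size by at most 0.36 or larger by at most 1.13, and the call of Galnt1 for colon minus forestomach was lost. The 11 enterocyte markers summed to 14960 FPKM in colon replicate 1 and 4756 FPKM in colon replicate 2, against 19720 and 29020 FPKM in intestine and 3686 and 4272 FPKM in hindstomach. The 14 mesenchyme markers summed to 867 and 1908 FPKM in colon, 430 and 92.1 FPKM in intestine, 229 and 395 FPKM in hindstomach and 5033 and 98.4 FPKM in forestomach. The pancreatic acinar markers summed to 1768 and 522 FPKM in colon, 2773 and 489.7 FPKM in intestine, 4371 and 1341 FPKM in hindstomach and 71430 and 6.74 FPKM in forestomach, with Ctrb1 at up to 2852 FPKM (hindstomach replicate 1). The part of these 3 cell types in the results was not tested. Read depth is unknown, and steps in the low values gave libraries at 0.43 to 1 of the depth of intestine replicate 1.

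**Figure D1:**
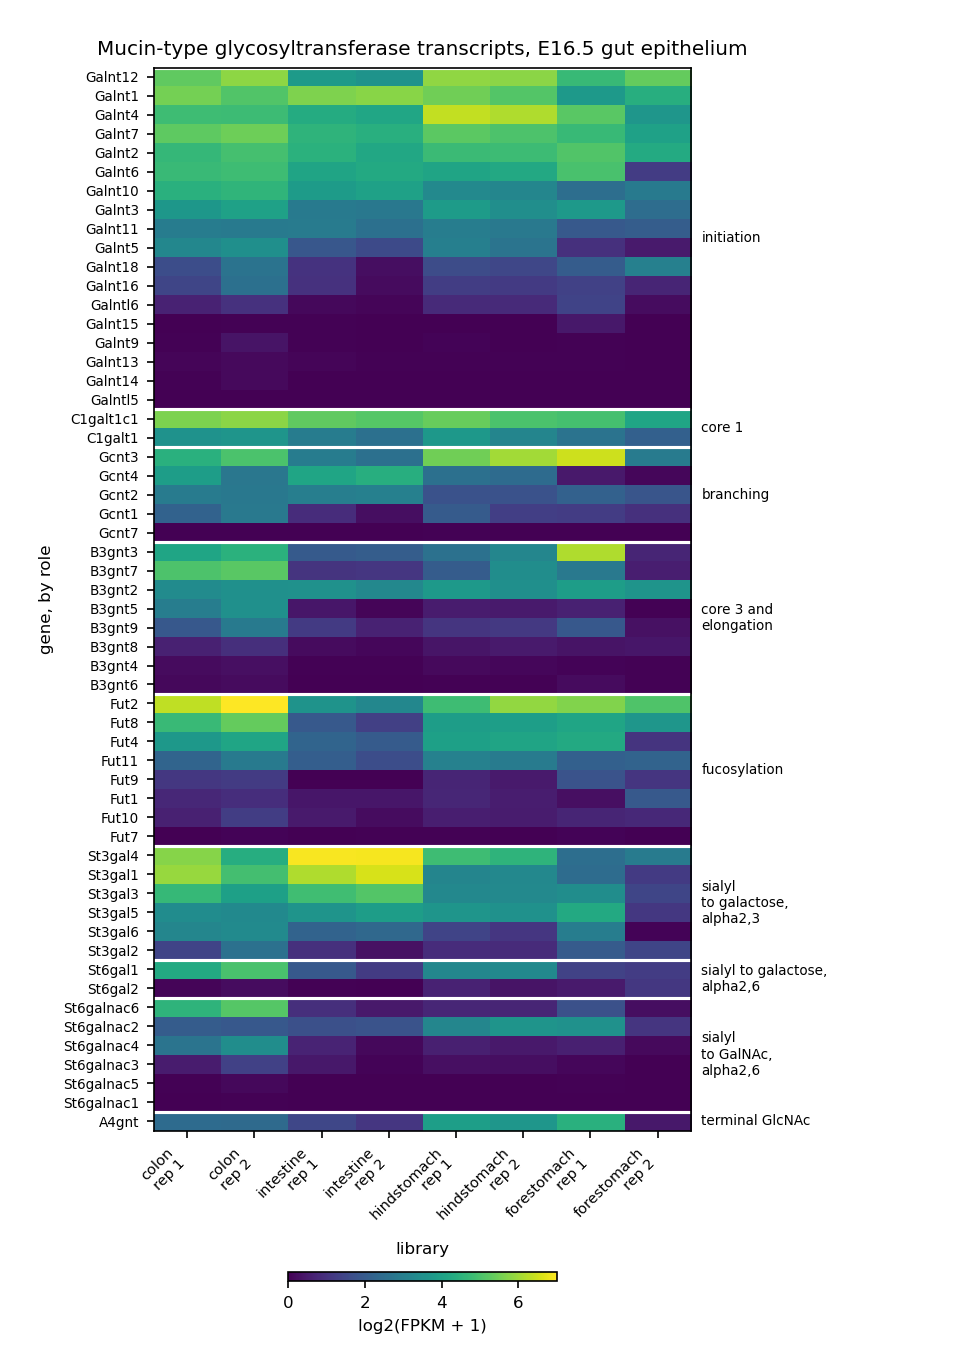
Levels of all 56 members in the 8 libraries, as log2(FPKM + 1) on a colour scale, one row per gene grouped by role and one column per library. The St3gal4 and St3gal1 rows are brightest in intestine, and the B3gnt5 and St6galnac6 rows are bright in both colon columns and dark in the intestine and hindstomach columns.

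Differences between tissues were tested with limma on log2(FPKM + 1) over all tested genes, and calls needed both a 2-fold change and an adjusted p (Benjamini-Hochberg) under 0.05. All 4 tissues shared one estimate of the spread, which the forestomach pair widened, so each count is followed by the one without the library labelled forestomach replicate 1, where the lone forestomach library was assumed to vary like the other tissues.

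Of the 39 members tested, 4 were called higher in colon than in intestine and 0 were called lower, against a background of 0.38% of all genes called higher and 0% called lower. They were St6galnac6, Fut8, B3gnt5 and St6gal1, with log2 fold changes of 4.14 ± 0.50, 3.42 ± 0.32, 2.98 ± 0.31 and 3.04 ± 0.35 (SE). As background, the enzymes they encode act mainly on N-glycans and glycolipids rather than on mucins. Within the pairs, all 4 members were higher in colon replicate 2 and in intestine replicate 1. These libraries had the larger mesenchyme and smaller enterocyte sums, and the part of either cell type was not tested. B3gnt5 and, among the members added below, St6galnac4 reached 1 FPKM in the colon libraries alone, and so entered the test through their colon levels. At an unadjusted p under 0.05, 19 members were higher and 1 was lower in colon, against 11.9% and 2.24% of all genes. The median log2 difference was 1.02 over the members and 0.23 over all genes. Without the library labelled forestomach replicate 1 the count was 14 higher and 0 lower, beside 2.5% and 0.04% of all genes, and 29 higher and 4 lower at an unadjusted p under 0.05, beside 28.0% and 7.76%. The 10 added to the called members were Fut2, Fut4, Fut9, B3gnt3, B3gnt7, St6galnac4, Gcnt3, A4gnt, Galnt5 and Galnt12. The count of 4 went to 0 when any one of the 6 colon, intestine or hindstomach libraries was left out, and to 14 without either forestomach library.

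Colon replicate 1 lay between intestine and colon replicate 2 for several members. With colon replicate 1 and the library labelled forestomach replicate 1 both left out, a setting chosen after the values were seen, 36 members were tested and 22 were called between colon replicate 2 and intestine: 18 higher and 4 lower, beside 14.5% and 4.72% of all genes. The lone colon library was assumed to vary like the other tissues, and B3gnt5, St6galnac4 and St6galnac6, which reached 1 FPKM in fewer than 2 of the libraries left, were not tested. The 4 lower ones were St3gal4 (-2.56 ± 0.15), Gcnt4 (-1.48 ± 0.18), St3gal1 (-1.48 ± 0.20) and St3gal3 (-1.004 ± 0.17). Colon replicate 2 also had the lower enterocyte and pancreatic acinar sums and the higher mesenchyme sum of the colon pair, as given above. The part of these cell types in the calls was not tested.

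Between colon and hindstomach, St6galnac6, B3gnt5, St6galnac4 and Galnt10 were called higher in colon, 4 of 39 members against 1.07% of all genes, and 0 members were called lower against 0.434% (11 higher and 1 lower at an unadjusted p under 0.05, beside 8.04% and 4.24%). Their log2 fold changes were 4.12 ± 0.50, 2.72 ± 0.31, 2.52 ± 0.34 and 1.25 ± 0.19. B3gnt5 and St6galnac4 entered the test through their colon levels, as described above. Leaving out the library labelled forestomach replicate 1 gave 9 members called higher, beside 4.49% of genes, and 3 called lower, beside 3.1%. The lower ones were Galnt4, A4gnt and St6galnac2. Again the count of 4 went to 0 when any one of the 6 colon, intestine or hindstomach libraries was left out. The median log2 difference was 0.60 over the members and 0.02 over all genes.

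Between intestine and hindstomach members were called in both directions, and branching enzymes went both ways without the library labelled forestomach replicate 1. With all libraries, St3gal1 (3.15 ± 0.51), St3gal4 (2.23 ± 0.44) and Gcnt2 (1.25 ± 0.20) were called higher in intestine, 3 of 39 beside 2.55% of all genes, and Fut8 (-2.28 ± 0.32) and Galnt12 (-2.11 ± 0.29) were called lower, 2 of 39 beside 2.47%. With that forestomach library left out, as above, 6 members were called higher (7.42% of all genes) and 12 lower (9.96%). Of the 6 alpha2,3-sialyltransferases tested, 4 were then higher and 0 lower, and of the 5 fucosyltransferases tested, 0 were higher and 4 lower. The count of 5 went to 0 when either intestine or either hindstomach library was left out. The median log2 difference was -0.61 over the members and -0.25 over all genes.

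Against the forestomach, 12 members were called higher in colon and 0 lower, beside 9.2% and 2.41% of all genes (20 higher and 0 lower at an unadjusted p under 0.05, beside 27.2% and 5.22%). For hindstomach minus forestomach 3 were called higher (Galnt5, Gcnt4 and St6gal1) and 0 lower, beside 4.26% and 1.33% of all genes (13 and 1 at an unadjusted p under 0.05, beside 25.3% and 4.83%). For intestine minus forestomach 8 were called higher and 5 lower, beside 11.3% and 5.78% of all genes (9 and 5 at an unadjusted p under 0.05, beside 22% and 11.9%). Without the library labelled forestomach replicate 1 these became 28 higher and 0 lower for colon (19.1% and 6.44% of all genes), 19 higher and 0 lower for hindstomach (14.3% and 6.55%), and 14 higher and 5 lower for intestine (16.6% and 11.3%), each against a single forestomach library. The 3 comparisons share the forestomach libraries. The members summed to 243.6 FPKM in forestomach replicate 2, against 532 to 848 FPKM in the other 7 libraries.

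FPKM as deposited set the median of all genes off 0 in most comparisons, and median-of-ratios scaling moved it by over 0.1, for example to 0.03 for hindstomach minus forestomach, against 0.39 as deposited. That scaling also changed the share of called genes that were higher, to 46.7% for hindstomach minus forestomach (76.1% as deposited), 57.4% for colon minus forestomach (79.2%), 55.4% for intestine minus forestomach (66.2%) and 63.9% for intestine minus hindstomach (50.8%). Quantile normalization gave 60.3% for colon minus hindstomach (71.1% as deposited). Of the members in intestine minus forestomach, median-of-ratios scaling left 5 called higher and 5 lower. The reference line for a log2 difference is therefore the median of all genes in that comparison, not 0.

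**Figure D2:**
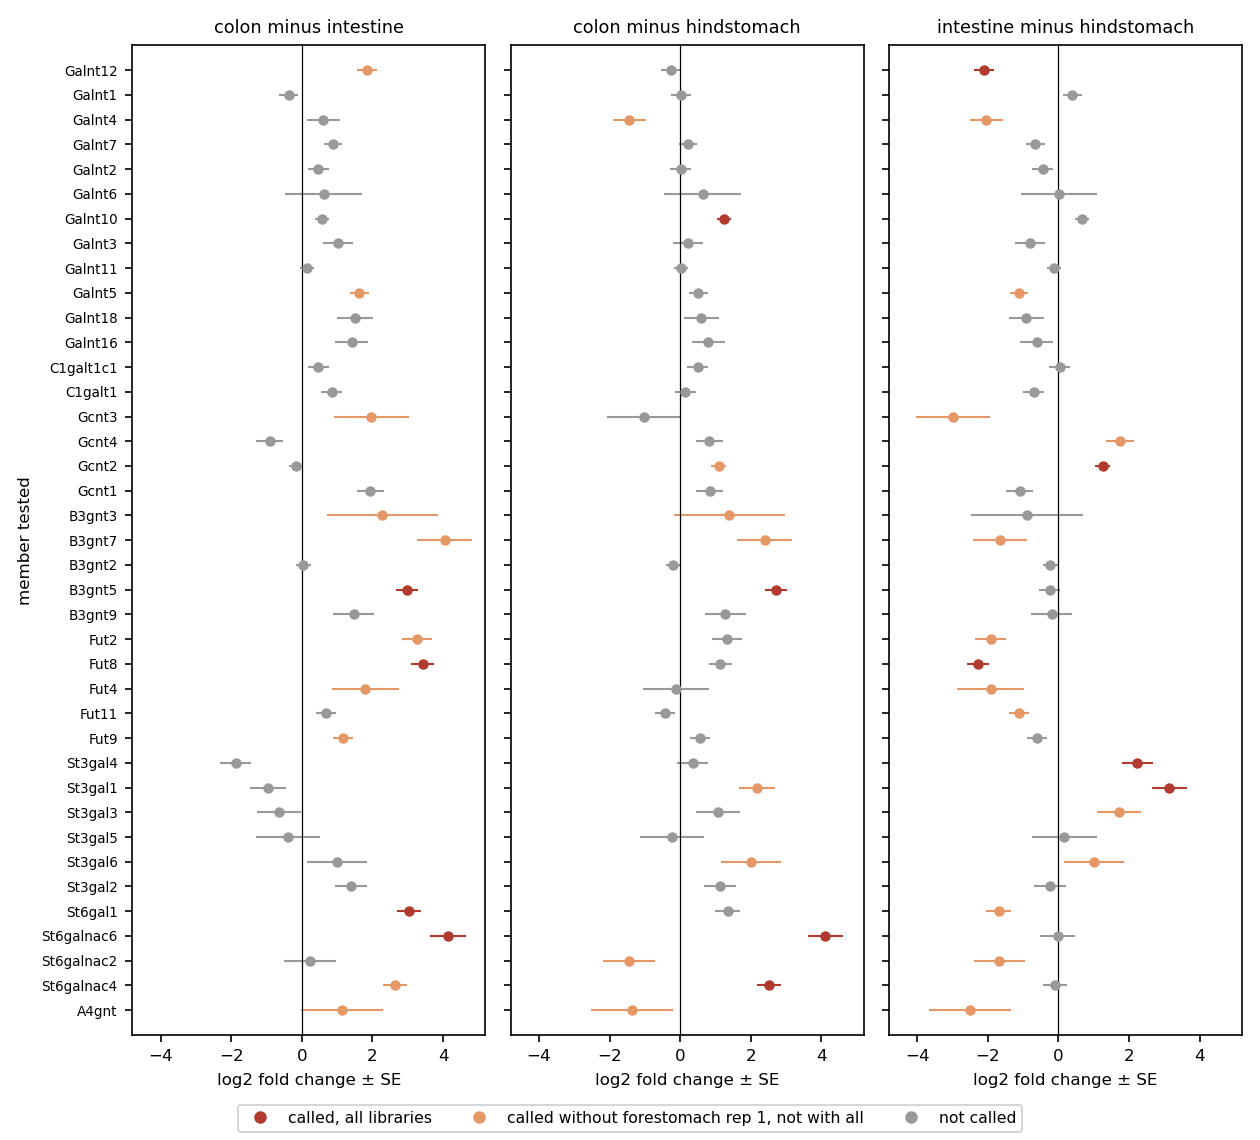
Log2 fold change (log2(FPKM + 1) scale) and SE of the 39 tested members, from the fit of all 8 libraries, for colon minus intestine, colon minus hindstomach and intestine minus hindstomach. Dark red points were called with all libraries, orange points were called once the library labelled forestomach replicate 1 was left out, and grey points in neither fit. In the colon minus intestine panel all called points lie right of 0, and in the intestine minus hindstomach panel they lie on both sides.

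Initiation transcripts were present in every tissue, and their makeup differed. In each sentence on levels below, replicate 1 precedes replicate 2, and the first forestomach value is that of the library labelled forestomach replicate 1. Galnt4 had 27.6 and 26.8 FPKM in colon, 18.6 and 16.6 FPKM in intestine, 80.7 and 70.5 FPKM in hindstomach and 35.8 and 11.8 FPKM in forestomach. Both hindstomach libraries stood above all others, and without the library labelled forestomach replicate 1 Galnt4 was called higher in hindstomach than in each other tissue, with a log2 fold change of -1.44 ± 0.12 for colon minus hindstomach and -2.04 ± 0.12 for intestine minus hindstomach. Galnt4 shares 8.25% of its exonic bases with Poc1b on the same strand. Galnt12 had 37.9 and 55.5 FPKM in colon, 13.03 and 11.1 FPKM in intestine, 56.2 and 54.6 FPKM in hindstomach and 25.5 and 40.1 FPKM in forestomach. Intestine was lowest, with a log2 fold change of -2.11 ± 0.29 against hindstomach (adjusted p = 0.0203). Galnt1, a broadly expressed initiator, had 45.4 and 33.6 FPKM in colon, 49.0 and 52.9 FPKM in intestine, 43.6 and 34.1 FPKM in hindstomach and 12.7 and 19.8 FPKM in forestomach. Both forestomach libraries were below the other 6, and Galnt1 was called higher in colon (1.25 ± 0.28) and in intestine (1.619 ± 0.28) than in forestomach. The colon call was lost without the library labelled forestomach replicate 1 (0.94 ± 0.24), and the intestine call was kept (1.32 ± 0.24). Galnt1 was the most abundant initiator in both intestine libraries, where it made up 28.5% and 32.1% of the summed FPKM of the role, while Galnt4 led both hindstomach libraries with 26.9% and 26.1%.

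Galnt10, which prefers substrates that already carry GalNAc, ordered the tissues along the gut. It had 20.8 and 22.8 FPKM in colon, 13.5 and 15.1 FPKM in intestine, 8.85 and 8.30 FPKM in hindstomach and 4.79 and 6.32 FPKM in forestomach. The groups did not overlap, and the log2 fold change was 1.25 ± 0.19 for colon minus hindstomach (adjusted p = 0.0433) and 1.81 ± 0.19 for colon minus forestomach, while colon minus intestine (0.58 ± 0.19) was not called. Galnt7, which has the same preference, had 37.3 and 43.1 FPKM in colon, 22.6 and 20.2 FPKM in intestine, 36.6 and 32.0 FPKM in hindstomach and 25.1 and 15.1 FPKM in forestomach. It was not called in a comparison with all libraries, and without the library labelled forestomach replicate 1 it was called higher in colon (1.35 ± 0.17) and in hindstomach (1.13 ± 0.17) than in forestomach. Galnt5 had 8.47 and 10.1 FPKM in colon, 2.75 and 1.95 FPKM in intestine, 7.10 and 5.42 FPKM in hindstomach and 0.944 and 0.418 FPKM in forestomach. It was called higher than in forestomach in colon, intestine and hindstomach (2.63 ± 0.27, 1.00 ± 0.27 and 2.12 ± 0.27). Galnt3, known for protecting the hormone Fgf23 from cleavage, had 12.1 and 15.1 FPKM in colon, 6.30 and 6.03 FPKM in intestine, 13.3 and 9.95 FPKM in hindstomach and 12.9 and 4.69 FPKM in forestomach. Intestine lay below colon and hindstomach in each library, and the log2 difference of 1.02 ± 0.42 for colon minus intestine was not called.

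Galnt6 had 26.0 and 27.4 FPKM in colon, 15.9 and 18.2 FPKM in intestine, 15.9 and 17.7 FPKM in hindstomach and 30.8 and 1.37 FPKM in forestomach. The forestomach pair lay far apart, and without the library labelled forestomach replicate 1 it was called higher in colon (3.55 ± 0.15), intestine (2.93 ± 0.15) and hindstomach (2.91 ± 0.15) than in forestomach. Galnt18 ran the other way, with 2.13 and 5.36 FPKM in colon, 1.05 and 0.201 FPKM in intestine, 2.08 and 1.81 FPKM in hindstomach and 3.11 and 7.27 FPKM in forestomach. It was called lower in intestine than in forestomach with all libraries (-1.89 ± 0.50) and without the library labelled forestomach replicate 1 (-2.397 ± 0.50). In colon and intestine Galnt18 and Galnt16 (1.75 and 4.95 and 0.988 and 0.158 FPKM) were higher in the library with the larger mesenchyme sum. So were St6galnac6, Fut8, B3gnt5 and St6gal1, as described above, and the part of mesenchyme in these values was not tested. Galnt2 reached 17.3 to 33.2 FPKM, but shares 90.0% of its exonic bases with the same-strand model Gm20388, so its reads may be split. Galnt11 ranged over 2.89 to 6.76 FPKM. Of the 18 initiators, Galnt9, Galnt13, Galnt14, Galnt15, Galntl5 and Galntl6 were not tested, the highest value among them being 1.67 FPKM of Galntl6 in the library labelled forestomach replicate 1.

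**Figure D3:**
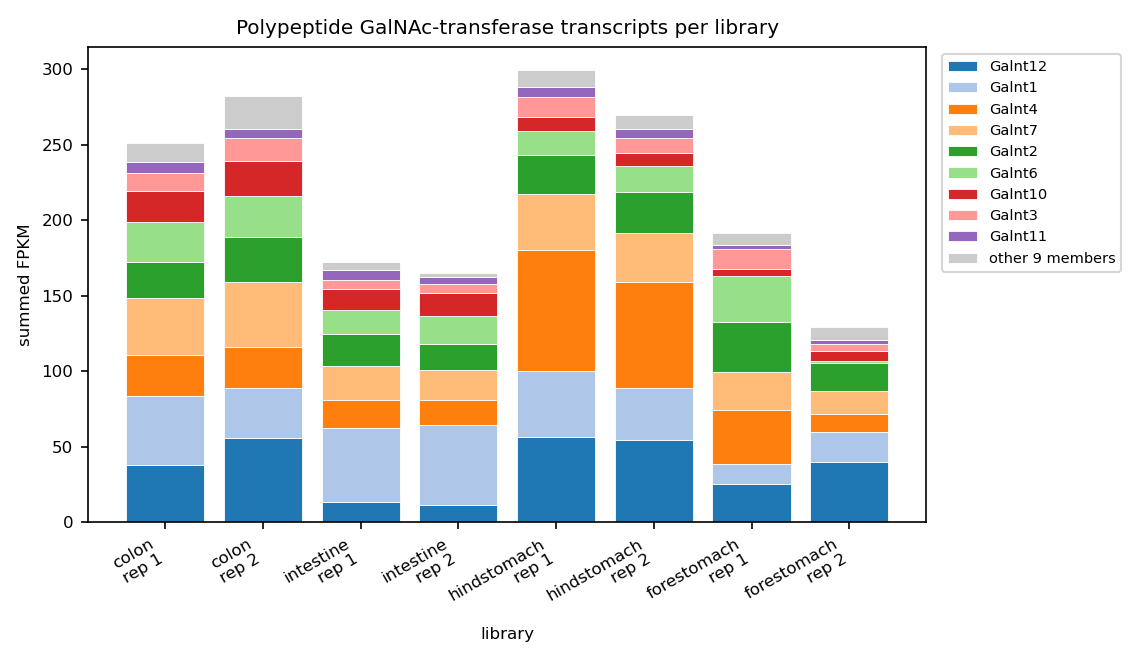
Stacked FPKM of the polypeptide GalNAc-transferases in each library, one bar per library and one colour per gene, with the 9 less abundant members pooled in grey. The bars reach 251 and 282 FPKM in colon, 172 and 165 FPKM in intestine, 299.6 and 269.7 FPKM in hindstomach and 191 and 129 FPKM in forestomach, and the Galnt4 segment is widest in hindstomach.

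Both core 1 transcripts were measured in all 8 libraries. C1galt1, the galactosyltransferase itself, had 10.8 and 11.6 FPKM in colon, 6.66 and 4.96 FPKM in intestine, 12.4 and 8.03 FPKM in hindstomach and 5.37 and 3.45 FPKM in forestomach. The chaperone C1galt1c1 was more abundant, with 47.8 and 54.5 FPKM in colon, 38.4 and 34.8 FPKM in intestine, 40.1 and 31.7 FPKM in hindstomach and 29.5 and 16.4 FPKM in forestomach. Between colon and intestine their log2 differences were 0.85 ± 0.29 and 0.47 ± 0.30, and neither was called. C1galt1 was called higher in colon than in forestomach (1.19 ± 0.29, adjusted p = 0.0481), and without the library labelled forestomach replicate 1 both were called there and in hindstomach minus forestomach.

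Branching enzymes changed places between intestine and hindstomach. Gcnt3, the mucin-type enzyme that makes core 2 and core 4 branches, had 20.9 and 31.4 FPKM in colon, 6.67 and 5.03 FPKM in intestine, 43.8 and 64.0 FPKM in hindstomach and 88.0 and 6.60 FPKM in forestomach. It was lowest in intestine and in forestomach replicate 2 and highest in the library labelled forestomach replicate 1. Without that library the log2 fold change was -2.99 ± 0.28 for intestine minus hindstomach and 1.97 ± 0.28 for colon minus intestine, neither of which was called with it. Gcnt4, a core 2 enzyme, had 13.9 and 5.84 FPKM in colon, 16.4 and 19.8 FPKM in intestine, 4.96 and 4.44 FPKM in hindstomach and 0.407 and 0.0915 FPKM in forestomach. Intestine lay above all other libraries and forestomach below all, and the log2 fold change was 3.94 ± 0.39 for intestine minus forestomach (adjusted p = 0.00216) and 2.20 ± 0.39 for hindstomach minus forestomach (adjusted p = 0.0330). Intestine minus hindstomach (1.74 ± 0.37) was called without the library labelled forestomach replicate 1 and not with it. Colon replicate 1 was close to intestine and colon replicate 2 close to hindstomach. Gcnt3 led the branching enzymes in both hindstomach libraries with 80.8% and 88.5% of their summed FPKM, and Gcnt4 in both intestine libraries with 53.3% and 61.4%.

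Gcnt2, which makes I-antigen branches, had 6.53 and 5.94 FPKM in colon, 6.91 and 7.27 FPKM in intestine, 2.39 and 2.41 FPKM in hindstomach and 3.53 and 2.58 FPKM in forestomach. Colon and intestine did not overlap with the stomach tissues, and it was called higher in intestine than in hindstomach (1.25 ± 0.20, adjusted p = 0.0288) and than in forestomach (1.00 ± 0.20). Gcnt1, the widely expressed core 2 enzyme, had 3.57 and 6.06 FPKM in colon, 0.842 and 0.192 FPKM in intestine, 3.05 and 1.48 FPKM in hindstomach and 1.36 and 0.969 FPKM in forestomach. Its log2 difference of 1.94 ± 0.38 for colon minus intestine was not called, and it followed the mesenchyme sum in colon and intestine. Gcnt7 stayed at or under 0.0196 FPKM.

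Among the B3gnt enzymes, which add GlcNAc to galactose or GalNAc, the colon stood out by level. B3gnt7, known for keratan sulfate chains, had 32.1 and 36.0 FPKM in colon, 1.07 and 1.16 FPKM in intestine, 3.12 and 9.72 FPKM in hindstomach and 6.11 and 0.490 FPKM in forestomach. Both colon libraries were above all others, and the log2 fold change was 3.43 ± 0.78 for colon minus forestomach (adjusted p = 0.0386). It was also called higher in colon, with that forestomach library left out (replicate 1), than in intestine (4.05 ± 0.43) and in hindstomach (2.396 ± 0.43). B3gnt5, which starts the lacto-series of glycolipids, had 6.82 and 10.4 FPKM in colon, 0.343 and 0.0739 FPKM in intestine, 0.441 and 0.421 FPKM in hindstomach and 0.553 and 0.0242 FPKM in forestomach. It was under 1 FPKM in all 6 libraries outside the colon and called higher in colon than in intestine (2.98 ± 0.31, adjusted p = 0.0268), hindstomach (2.72 ± 0.31, adjusted p = 0.0167) and forestomach (2.91 ± 0.31, adjusted p = 0.00370). B3gnt3, which extends core 1, had 16.51 and 21.3 FPKM in colon, 2.99 and 3.17 FPKM in intestine, 5.14 and 8.20 FPKM in hindstomach and 71.5 and 0.665 FPKM in forestomach. The library labelled forestomach replicate 1 had the highest value and its partner the lowest, and without it B3gnt3 was called higher in colon than in intestine (2.28 ± 0.24), hindstomach (1.40 ± 0.24) and forestomach (3.57 ± 0.29).

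B3gnt6, the core 3 synthase, was not tested: its highest value was 0.145 FPKM, with 0.118 and 0.143 FPKM in colon and 0.00697 and 0.0141 FPKM in intestine. B3gnt4 and B3gnt8 also stayed under 1 FPKM in all libraries. B3gnt2, the main poly-N-acetyllactosamine enzyme, stood between 8.70 and 14.0 FPKM, though 58.6% of its exonic bases are shared with the same-strand model Gm28048. B3gnt9 ranged from 0.249 to 6.22 FPKM and was highest in colon replicate 2. The 8 enzymes summed to 68.5 and 85.8 FPKM in colon, 16.6 and 13.8 FPKM in intestine, 23.2 and 30.4 FPKM in hindstomach and 95.5 and 13.2 FPKM in forestomach. B3gnt7 was the leading one in colon and B3gnt2 in intestine, hindstomach and forestomach replicate 2.

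Of the 5 fucosyltransferases tested, Fut2, Fut8, Fut9 and Fut11 were lowest in both intestine libraries, and Fut4 in forestomach replicate 2. Fut2, the alpha1,2-fucosyltransferase of the secretor type, had 79.8 and 127 FPKM in colon, 11.1 and 8.48 FPKM in intestine, 27.5 and 56.9 FPKM in hindstomach and 49.9 and 32.7 FPKM in forestomach. Both intestine libraries were below all others. Fut2 was called lower in intestine than in forestomach (-1.95 ± 0.43, adjusted p = 0.0255), and without the library labelled forestomach replicate 1 it was called higher in colon than in intestine (3.25 ± 0.39) and lower in intestine than in hindstomach (-1.92 ± 0.39). Fut8 had 25.8 and 40.0 FPKM in colon, 2.85 and 1.49 FPKM in intestine, 14.0 and 14.1 FPKM in hindstomach and 16.3 and 11.7 FPKM in forestomach. The log2 fold change was 3.42 ± 0.32 for colon minus intestine (adjusted p = 0.0221), -2.28 ± 0.32 for intestine minus hindstomach (adjusted p = 0.0218) and -2.26 ± 0.32 for intestine minus forestomach (adjusted p = 0.00674). Colon also exceeded hindstomach in both libraries, by a log2 difference of 1.14 ± 0.32 that was not called.

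Fut4 and Fut9 add the alpha1,3-linked fucose of Lewis x. Fut4 had 12.3 and 16.4 FPKM in colon, 3.75 and 3.02 FPKM in intestine, 14.9 and 16.1 FPKM in hindstomach and 18.2 and 1.07 FPKM in forestomach. It was called higher in colon than in intestine (1.80 ± 0.18) and lower in intestine than in hindstomach (-1.92 ± 0.18) without the library labelled forestomach replicate 1 and not with it. Against the remaining forestomach library it was called higher in colon (2.88 ± 0.22), intestine (1.08 ± 0.22, adjusted p = 0.0126) and hindstomach (2.99 ± 0.22). Fut9 was low, with 1.19 and 1.31 FPKM in colon, 0.00717 and 0.00121 FPKM in intestine, 0.649 and 0.418 FPKM in hindstomach and 2.48 and 1.11 FPKM in forestomach. It was called lower in intestine than in forestomach (-1.43 ± 0.28, adjusted p = 0.0189). Fut11 had 3.80 and 6.25 FPKM in colon, 3.26 and 2.17 FPKM in intestine, 7.46 and 6.49 FPKM in hindstomach and 3.47 and 3.72 FPKM in forestomach, and was called lower in intestine than in hindstomach without the library labelled forestomach replicate 1 (-1.11 ± 0.26) and not with it. Fut1, the other alpha1,2-fucosyltransferase, passed 1 FPKM in 1 library, forestomach replicate 2 (2.88 FPKM), and Fut7 stayed at or under 0.0524 FPKM. Fut2 held the largest share of the fucosyltransferase sum in every library, from 41.8% in hindstomach replicate 1 to 65.7% in colon replicate 2.

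The intestine stood apart in the linkages its sialyltransferases make. Those adding sialic acid to galactose in alpha2,3 linkage (St3gal) made up 97.1% and 98.4% of the summed FPKM of all sialyltransferases in intestine, against 75.8% and 52.0% in colon, 75.5% and 70.6% in hindstomach and 75.2% and 75.4% in forestomach. The share of St6gal was 8.82% and 18.8% in colon, 1.19% and 0.497% in intestine, 11.8% and 12.5% in hindstomach and 3.21% and 15.7% in forestomach. St6galnac transcripts made up 15.4% and 29.3% in colon, 1.72% and 1.13% in intestine, 12.7% and 16.9% in hindstomach and 21.6% and 8.86% in forestomach. Both intestine libraries lay outside the range of the other 6 for each linkage, and the shares of colon, hindstomach and forestomach overlapped. The summed FPKM was 206 and 166 in colon, 244 and 269 in intestine, 76.7 and 74.6 in hindstomach and 62.5 and 16.54 in forestomach.

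**Figure D4:**
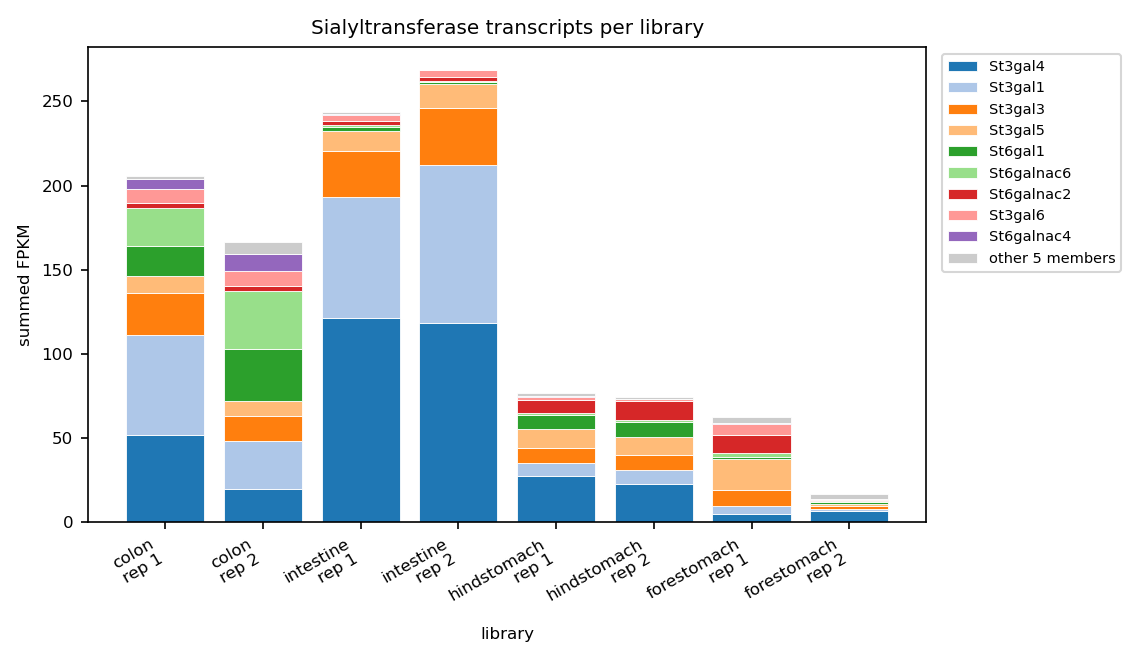
Stacked FPKM of the sialyltransferases in each library, one bar per library and one colour per gene, with the 5 least abundant members pooled in grey. St3gal4, St3gal1 and St3gal3 fill most of the intestine bars, which reach 244 and 269 FPKM, and the St6gal1 and St6galnac6 segments are widest in colon replicate 2.

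St3gal4, which acts on N-acetyllactosamine ends, had 51.8 and 19.5 FPKM in colon, 122 and 118 FPKM in intestine, 27.2 and 22.5 FPKM in hindstomach and 4.76 and 6.49 FPKM in forestomach. The 2 intestine libraries stood above all others, and the log2 fold change was 2.23 ± 0.44 for intestine minus hindstomach (adjusted p = 0.0459), 4.20 ± 0.44 for intestine minus forestomach (adjusted p = 0.00264) and -1.88 ± 0.44 for colon minus intestine, which was not called. St3gal1, which caps core 1, had 59.6 and 28.8 FPKM in colon, 71.4 and 93.7 FPKM in intestine, 8.06 and 8.66 FPKM in hindstomach and 4.53 and 1.27 FPKM in forestomach. Colon and intestine stood above both stomach tissues, with a log2 fold change of 3.15 ± 0.51 for intestine minus hindstomach (adjusted p = 0.0286), 4.55 ± 0.51 for intestine minus forestomach and 3.59 ± 0.51 for colon minus forestomach. St3gal3 had 24.8 and 14.8 FPKM in colon, 27.9 and 34.0 FPKM in intestine, 8.59 and 8.83 FPKM in hindstomach and 9.73 and 1.74 FPKM in forestomach. It was called higher in intestine than in forestomach (2.55 ± 0.62, adjusted p = 0.0360). For these 3 genes colon replicate 1 was the higher of the colon pair, as were the enterocyte markers.

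St3gal5, the GM3 ganglioside synthase, had 9.67 and 8.97 FPKM in colon, 11.3 and 14.0 FPKM in intestine, 11.5 and 10.7 FPKM in hindstomach and 18.2 and 1.18 FPKM in forestomach. Outside the forestomach pair its values were close together, and none of the 3 comparisons among colon, intestine and hindstomach was called in either fit. St3gal6 had 8.35 and 9.17 FPKM in colon, 3.66 and 4.12 FPKM in intestine, 1.72 and 1.17 FPKM in hindstomach and 6.78 and 0.0501 FPKM in forestomach. Colon was highest, and St3gal6 was called higher in colon than in hindstomach without the library labelled forestomach replicate 1 (2.01 ± 0.17) and not with it. It overlaps Dcbld2 on the opposite strand over 26% of its exonic bases, and the strand setting of the counting is not given in the sources used here. St3gal2 reached 0.235 to 5.11 FPKM, with its highest value in colon replicate 2.

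St6gal1 had 18.1 and 31.0 FPKM in colon, 2.88 and 1.33 FPKM in intestine, 8.47 and 9.03 FPKM in hindstomach and 1.58 and 1.38 FPKM in forestomach. Colon was highest, hindstomach next, and intestine and forestomach lowest with overlapping values. The log2 fold change was 3.04 ± 0.35 for colon minus intestine (adjusted p = 0.0397), 3.32 ± 0.35 for colon minus forestomach (adjusted p = 0.00346) and 1.97 ± 0.35 for hindstomach minus forestomach (adjusted p = 0.0324). St6gal2 was not tested and had at most 1.22 FPKM, in forestomach replicate 2.

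The St6galnac enzymes add sialic acid to GalNAc. St6galnac6, best known for gangliosides, had 22.7 and 34.4 FPKM in colon, 0.920 and 0.399 FPKM in intestine, 0.672 and 0.664 FPKM in hindstomach and 2.32 and 0.205 FPKM in forestomach. Both colon libraries were far above all others, and it was called higher in colon than in intestine (4.14 ± 0.50, adjusted p = 0.0448), hindstomach (4.12 ± 0.50, adjusted p = 0.0206) and forestomach (3.85 ± 0.50, adjusted p = 0.00728). St6galnac4, which makes disialylated core 1, had 5.49 and 9.75 FPKM in colon, 0.633 and 0.113 FPKM in intestine, 0.519 and 0.386 FPKM in hindstomach and 0.522 and 0.127 FPKM in forestomach. It was called higher in colon than in hindstomach (2.52 ± 0.34, adjusted p = 0.0304) and forestomach (2.67 ± 0.34, adjusted p = 0.00700), and than in intestine without the library labelled forestomach replicate 1 (2.63 ± 0.32) and not with it. These 2 genes are neighbours on the plus strand of chromosome 2: in GENCODE M21 on GRCm38 St6galnac4 runs from 32587095 to 32599698 and St6galnac6 from 32599709 to 32620806, with 10 bases between them. Reads running from one into the other could be counted for either, and this was not tested.

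St6galnac2, which acts on core 1, followed another order, with 3.07 and 2.78 FPKM in colon, 2.27 and 2.45 FPKM in intestine, 8.30 and 11.3 FPKM in hindstomach and 10.5 and 1.11 FPKM in forestomach. It was called lower in colon (-1.45 ± 0.18) and in intestine (-1.67 ± 0.18) than in hindstomach once the library labelled forestomach replicate 1 was left out, and with it in neither. GENCODE M21 holds another, shorter gene of the symbol St6galnac2 on the same strand, with 22.8% of its exonic bases shared. Which of these genes the levels count is not given in the sources used here. St6galnac1, the sialyl-Tn synthase, was listed at no more than 0.0203 FPKM in any library, and St6galnac5 at no more than 0.115 FPKM. St6galnac3 passed 1 FPKM in 1 library, colon replicate 2 (1.56 FPKM).

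A4gnt, which caps gland mucins of the stomach with alpha1,4-linked GlcNAc, had 4.46 and 4.398 FPKM in colon, 1.80 and 1.15 FPKM in intestine, 14.1 and 11.9 FPKM in hindstomach and 20.6 and 0.358 FPKM in forestomach. Hindstomach stood above colon, intestine and forestomach replicate 2, and below the library labelled forestomach replicate 1. Without that library the log2 fold change was -1.36 ± 0.18 for colon minus hindstomach, -2.51 ± 0.18 for intestine minus hindstomach and 3.36 ± 0.23 for hindstomach minus forestomach, and none of these was called with it. It was also called higher in colon than in intestine without that library (1.15 ± 0.18). The 8 gland mucous and chief cell markers summed to 100.5 and 7.77 FPKM in colon and 287 and 75.5 FPKM in intestine, which overlapped. Their sums were far higher in hindstomach, at 24980 and 34860 FPKM, and were 101000 and 2521 FPKM in forestomach. Most of that was Cym in hindstomach and Pgc in the library labelled forestomach replicate 1, where Cym had 8.49 FPKM, and the part of these cells in the A4gnt levels was not tested.

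**Figure D5:**
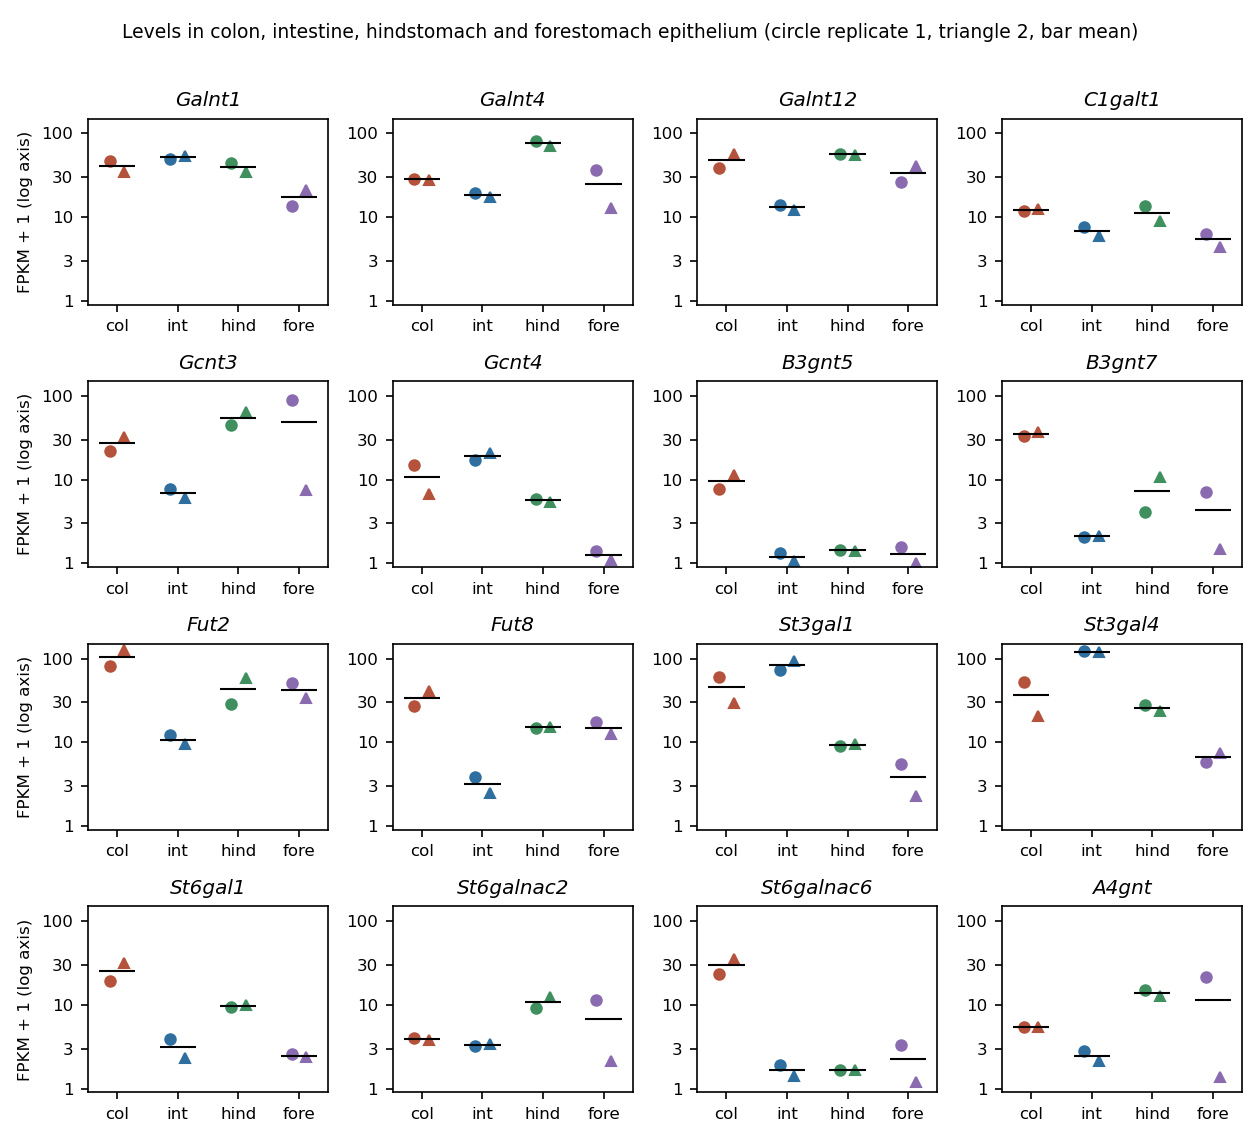
Levels of selected members in each library, as FPKM + 1 on a log axis, for colon, intestine, hindstomach and forestomach. Circles are replicate 1, triangles replicate 2 and bars the mean of both. The replicates lie far apart for forestomach in Gcnt3, St6galnac2, A4gnt and B3gnt7 and for colon in St3gal4, St3gal1 and Gcnt4, where replicate 1 is the higher.

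Enrichment in one tissue means a call for higher levels against all 3 others. With all libraries 2 members were enriched in colon, B3gnt5 and St6galnac6, among 33 such genes (0.256% of all tested), and 0 in the other tissues. B3gnt5 and St6galnac4 reached 1 FPKM in the colon libraries alone, and St6galnac6 only there and in the library labelled forestomach replicate 1. These genes thus entered the test through high colon levels, and their enrichment there is not independent of the filter. Without the library labelled forestomach replicate 1 the colon members were B3gnt3, B3gnt5, B3gnt7, St6galnac4 and St6galnac6, 5 among 97 genes (0.776%). In hindstomach they were A4gnt, Galnt4 and St6galnac2, 3 among 220 genes (1.76%). In intestine and forestomach 0 members were enriched, among 5 and 578 genes.

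Other genes of the pathway were read from lists of mucins, galactosyl- and GalNAc-transferases, sulfotransferases and sulfate donors, sugar nucleotide synthesis, Golgi transporters and N-glycan branching. The list counted as mucins also held Emcn, an endothelium marker, and Mcam, so its counts are not of Muc genes alone. For colon minus intestine 1 of 17 galactosyl- and GalNAc-transferases (B3galt5) and 1 of 17 synthesis genes (Gne) were called higher, beside 0.38% of all genes, and 0 of 9 mucins, 0 of 13 sulfotransferases and donors, 0 of 9 transporters and 0 of 11 branching genes, with 0 called lower. Gne, which makes the sialic acid precursor, had 36.2 and 44.5 FPKM in colon, 9.33 and 8.54 FPKM in intestine, 9.90 and 8.499 FPKM in hindstomach and 3.97 and 3.62 FPKM in forestomach. The log2 fold change was 2.05 ± 0.19 for colon minus intestine (adjusted p = 0.0221) and 2.02 ± 0.19 for colon minus hindstomach (adjusted p = 0.0107). B3galt5, which makes type 1 chains, had 11.98 and 16.1 FPKM in colon, 0.172 and 0.209 FPKM in intestine, 0.358 and 0.714 FPKM in hindstomach and 1.03 and 0.0146 FPKM in forestomach. It was called higher in colon than in intestine (3.65 ± 0.37, adjusted p = 0.0268) and hindstomach (3.29 ± 0.37, adjusted p = 0.0166). B3galt5 reached 1 FPKM only in colon and in the library labelled forestomach replicate 1. It thus entered the test through its colon levels, and these calls are not independent of the filter. The colon minus intestine calls without the library labelled forestomach replicate 1 were 5 of 17 transferases, 4 of 17 synthesis genes, 1 of 8 mucins, 1 of 12 sulfotransferases and donors and 1 of 9 transporters, all higher, beside 2.5% of all genes, and 0 of 11 branching genes. They included Nans, which completes sialic acid synthesis (1.92 ± 0.16), Slc35a1, which carries CMP-sialic acid into the Golgi (1.68 ± 0.17), and Chst4, a GlcNAc sulfotransferase (2.38 ± 0.16).

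Some of the mucins themselves differed between tissues. Muc2, the secreted mucin of goblet cells, had 36.5 and 47.6 FPKM in colon, 2.37 and 6.402 FPKM in intestine, 1.34 and 2.403 FPKM in hindstomach and 0.242 and 0.0604 FPKM in forestomach, and was called higher in colon than in hindstomach (3.92 ± 0.42, adjusted p = 0.0136). Muc13, a membrane mucin, had 556 and 332 FPKM in colon, 709 and 839 FPKM in intestine, 121 and 107 FPKM in hindstomach and 1.37 and 0.0826 FPKM in forestomach, and was called higher in intestine than in hindstomach (2.75 ± 0.42, adjusted p = 0.0257). Muc1 had 6.58 and 6.17 FPKM in colon, 4.74 and 1.27 FPKM in intestine, 169 and 269 FPKM in hindstomach and 268 and 16.9 FPKM in forestomach, and was called lower in intestine than in hindstomach without the library labelled forestomach replicate 1 (-5.89 ± 0.46) and not with it. Of 9 genes tested in the mucin list, Emcn and Mcam among them, 1 was called higher in colon than in hindstomach and 1 higher in intestine than in hindstomach. The shares of all genes were 1.07% and 2.55%, and 0 genes of the list were called lower in both. Without that library the counts were 2 higher and 3 lower of 8 for colon and 1 higher and 4 lower of 8 for intestine, beside 4.49% and 3.1% of all genes for colon and 7.42% and 9.96% for intestine. Among the galactosyltransferases B4galt1, which makes N-acetyllactosamine, was called lower in intestine than in hindstomach (-3.29 ± 0.45, adjusted p = 0.0204), with 4.20 and 1.53 FPKM in intestine against 34.4 and 34.8 FPKM in hindstomach. Against forestomach with all libraries the 17 synthesis genes gave 8 higher and 0 lower in colon, 6 higher and 1 lower in intestine and 3 higher and 0 lower in hindstomach, beside 9.2% and 2.41%, 11.3% and 5.78%, and 4.26% and 1.33% of all genes. Leaving out the library labelled forestomach replicate 1 gave 13 higher and 0 lower in colon, 8 higher and 1 lower in intestine and 11 higher and 0 lower in hindstomach, beside 19.1% and 6.44%, 16.6% and 11.3%, and 14.3% and 6.55% of all genes. The 14 goblet cell markers, Muc2 among them, summed to 3189 and 4022 FPKM in colon, 1213 and 1132 FPKM in intestine, 919 and 794 FPKM in hindstomach and 420.2 and 35.3 FPKM in forestomach, and their part in the colon differences was not tested.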

How the data were processed

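Poly(A) RNA-seq levels were taken as deposited: FPKM per gene symbol in one table, made by the authors, with STAR 2.4.2a and mm10 (GRCm38) named in the submitters' processing notes. How FPKM were computed, and with which annotation and strandedness, is not given in the sources used here. Another 4 columns matched no listed sample and were not used. FPKM is relative to the library total, so a few very abundant genes lower all others: the top 10 took 52.5% of the FPKM total in the library labelled forestomach replicate 1, against 6.27% to 17.4% elsewhere. Read counts are unknown, so no counting interval or floor is given.

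Values were analyzed as log2(FPKM + 1), which understates the change of low genes, for genes reaching 1 FPKM in 2 or more libraries. limma 3.58.1 (R 4.3.3) fitted 4 tissue means (4 residual degrees of freedom) with a mean-variance trend, and was tested on simulated data. In each of 6 comparisons a call needed an adjusted p (Benjamini-Hochberg) under 0.05 and a 2-fold change. Members and gene lists were chosen with earlier results of these data known. Members were named if called, at most 8 per comparison and direction, or for their role in the pathway. The polysialyltransferase list had 0 of 6 genes tested. The labels do not say whether replicate numbers pair libraries across tissues, and the main fit did not pair them. Results were recomputed with another pseudocount, other filters and scalings, no trend, no fold limit, fewer tissues in the fit, a block for the replicate number, and single libraries left out. Gene positions and overlaps come from GENCODE M21, upstream sequence from RefSeq on GRCm38.p6.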

Additional observations from a re-analysis of the deposited data

How the results depend on the processing

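With 2 libraries a tissue, counts of members called moved with nearly every choice that touched the shared spread. They were 3 for hindstomach minus forestomach, 13 for intestine minus forestomach, 12 for colon minus forestomach, 5 for intestine minus hindstomach, 4 for colon minus hindstomach, 4 for colon minus intestine and 2 enriched in one tissue, and leaving out one library at a time gave 0 to 19, 3 to 19, 5 to 28, 0 to 18, 0 to 12, 0 to 14 and 0 to 8, in that order. Without a filter on low values the counts were 1 for hindstomach minus forestomach, 8 for intestine minus forestomach, 2 for intestine minus hindstomach, 2 for colon minus hindstomach, 1 for colon minus intestine and 0 enriched. A minimum of 5 FPKM gave 5 for hindstomach minus forestomach, 2 for colon minus hindstomach, 1 for colon minus intestine and 0 enriched. A pseudocount of 0.1 gave 0 for colon minus hindstomach, 1 for colon minus intestine and 0 enriched, and median-of-ratios scaling 1 enriched. A fit of the 2 tissues compared gave 0 for hindstomach minus forestomach, 3 for intestine minus forestomach, 0 for colon minus forestomach, 18 for intestine minus hindstomach, 13 for colon minus hindstomach and 0 enriched. A fit without the forestomach libraries gave 18 for intestine minus hindstomach, 12 for colon minus hindstomach and 14 for colon minus intestine. With the library labelled forestomach replicate 1 and colon replicate 1 left out, an alternative chosen after seeing the data that tested 36 members, the counts were 21 for hindstomach minus forestomach, 25 for colon minus forestomach, 18 for intestine minus hindstomach, 12 for colon minus hindstomach, 22 for colon minus intestine and 12 enriched. The cause was not tested beyond these settings. With the replicate number as a block, 1 member was called for hindstomach minus forestomach, 1 for intestine minus hindstomach, 0 for colon minus hindstomach, 0 for colon minus intestine and 0 enriched. Deviations of libraries with the same number correlated at -0.578 to 0.27 between tissues. With 1 deviation per tissue, this cannot decide whether libraries with the same number share embryos or a batch.

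Of the 41 calls of single members with all libraries, 32 held under a pseudocount of 0.1, 32 under median-of-ratios scaling and 22 with the replicate block. Without a filter on low values 22 held, and in a fit of only the 2 tissues compared 15 held. Most of the 41 calls were lost when either intestine or either hindstomach library was left out, and few when either forestomach library was. Directions turned in comparisons with the forestomach. For colon minus forestomach, median-of-ratios scaling and quantile normalization gave -0.36 and -0.69 for A4gnt and -0.42 and -0.27 for Gcnt3, and the first gave -0.076 for Galnt4. For St3gal6 in hindstomach minus forestomach a pseudocount of 0.1 gave 0.58. Leaving out both the library labelled forestomach replicate 1 and colon replicate 1 gave 2.17 for B3gnt3 and 1.21 for St3gal6 in hindstomach minus forestomach, and 1.29 for B3gnt3 and 1.08 for Fut4 in intestine minus forestomach. Leaving out one library gave log2 fold changes for colon minus forestomach of -1.99 to 2.00 (A4gnt), -1.87 to 3.57 (B3gnt3), -0.34 to 2.88 (Fut4), -0.38 to 1.14 (Galnt4), -0.20 to 3.55 (Galnt6), -1.74 to 1.81 (Gcnt3) and -0.89 to 2.24 (St3gal5). For hindstomach minus forestomach they were -0.63 to 3.36 (A4gnt), -3.27 to 2.17 (B3gnt3), -0.10 to 2.16 (B3gnt7), -0.22 to 2.99 (Fut4), -0.15 to 1.14 (Galnt3), -0.84 to 2.91 (Galnt6), -0.72 to 2.83 (Gcnt3), -0.14 to 1.82 (St3gal3), -0.67 to 2.47 (St3gal5), -1.68 to 1.21 (St3gal6) and -0.11 to 2.34 (St6galnac2). For intestine minus forestomach they were -4.15 to 1.29 (B3gnt3), -2.14 to 1.08 (Fut4), -0.82 to 2.93 (Galnt6), -0.50 to 2.64 (St3gal5) and -0.67 to 2.22 (St3gal6).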
